A study of Homo sapiens with 24 samples.

Results

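The genes described here are 10 genes of the unfolded protein response (UPR) and of the stress pathway that runs through ATF4: *ATF4*, *ASNS*, *CHAC1*, *TRIB3*, *DDIT4*, *PPP1R15A*, *XBP1*, *HSPA5*, *DNAJB9* and *HERPUD1*. The rule is this list of symbols, with no threshold on a measured value, although it was drawn up with earlier results of these data known. All 10 were found among the 25702 Entrez gene identifiers of the RNA-seq count data and passed the filter on low counts. The 24 samples were IMR90 cells, human diploid fibroblasts from lung, in 4 groups of 6 biological replicates. All of them carried a retroviral ER:HRAS(G12V), an oncogenic HRAS fused to the oestrogen receptor that 4-hydroxytamoxifen (4OHT) activates, and so did the controls. Growing cells carried the MSCV vector and received no 4OHT, and RIS cells carried the same vector and received 4OHT for 6 days to bring on RAS-induced senescence. The shHMGA1 and RIS+shHMGA1 groups were their counterparts with MSCV miR30 shHMGA1, a hairpin against *HMGA1*, in place of the vector. Every group thus rested on virally transduced cells of 1 fibroblast line and, where the hairpin was used, on 1 hairpin.

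The endoplasmic reticulum (ER) folds secreted and membrane proteins, and the UPR is the set of signals that answers an excess of unfolded protein in it. The sensor IRE1 splices the mRNA of the transcription factor XBP1, the sensor ATF6 is cleaved to release a transcription factor, and the sensor PERK phosphorylates eIF2α, which lowers translation in general and raises translation of *ATF4* mRNA. Other kinases phosphorylate eIF2α on amino acid shortage or viral RNA, and the common pathway is called the integrated stress response. Senescent fibroblasts secrete large amounts of protein, and the UPR has been studied in them for that reason. Gene counts give neither the splicing of *XBP1* nor the translation of *ATF4*, and in bulk RNA fewer cells with a transcript and less transcript per cell cannot be told apart.

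The members differ in the response elements near their start sites. They were listed as genes of these pathways, so the shares of members with an element are not independent of the choice of genes. RefSeq promoter windows (250 bases before to 50 after the start site, table of build GRCh38.p14) were given for all 10 genes and were searched on both strands for the letters of 4 elements. These were TGATGNAA, the core of the C/EBP-ATF response element (CARE) that ATF4 binds, the ER stress response elements that ATF6 binds, ERSE (CCAAT and CCACG with 9 bases of any kind between them) and ERSE-II (ATTGG and CCACG with 1 base between them), and TGACGTGG of the UPR element (UPRE). ERSE and ERSE-II share the letters CCACG. CARE letters stood in 3.67% of the 27305 promoters in the table and in 3 of the 10 members, ERSE letters in 0.0806% and in 2 members, ERSE-II letters in 0.0549% and in 1 member, and UPRE letters in 0.795% and in 0 members. The windows that held a match are shown because the members differ in these elements, through which the arms of the response are known to reach their targets. Each is 30 bases of the strand that carries the element, 5′ to 3′, with the element in capitals.
*ASNS* CARE, chr7:97501770-97501799, minus strand: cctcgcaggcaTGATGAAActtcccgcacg
*CHAC1* CARE, chr15:41245449-41245478, minus strand: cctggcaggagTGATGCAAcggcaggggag
*HERPUD1* CARE, chr16:56965867-56965896, minus strand: tgggcacgggcTGATGCAAcccgccgcgtc
*HERPUD1* ERSE-II, chr16:56965928-56965957, plus strand: cggacgccgATTGGGCCACGttgggagagt
*XBP1* ERSE, chr22:29196585-29196614, minus strand: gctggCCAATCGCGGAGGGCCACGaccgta
*HSPA5* ERSE, chr9:128003664-128003693, minus strand: cttcaCCAATCGGCGGCCTCCACGacgggg
Coordinates are those of GRCh37, the build of the counts, where each window matched its chromosome once. The base of each element nearest to the start site lies 61 bases (*ASNS*), 202 bases (*CHAC1*), 169 and 107 bases (*HERPUD1*), 34 bases (*XBP1*) and 48 bases (*HSPA5*) before it, and the CARE letters of *CHAC1* and *HERPUD1* lie on the strand opposite to the gene. No match was found for *ATF4*, *TRIB3*, *DDIT4*, *DNAJB9* and *PPP1R15A*, which says only that these letters are not in these windows. A match is a description of letters and was not tested as a binding site.

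The libraries held between 8698070 and 23103424 counts (median 10604083), and the lowest count of a member in any library was 134, for *DDIT4*. Levels are given as CPM, the count of a gene scaled by the TMM-adjusted total of its library. *HMGA1*, the hairpin's target, lay between 638.9 and 860.9 CPM in growing and between 640.6 and 785.9 CPM in RIS samples, and between 54.4 and 143 CPM in shHMGA1 and between 59.98 and 262 CPM in RIS+shHMGA1 samples. The libraries labelled growing 4 and RIS 2 stood apart from their groups. On the first principal component, which held 73.85% of the variance, growing 4 lay at 77.31 where the other growing libraries lay from −84.31 to −57.2, and RIS 2 lay at −77.06 where the other RIS libraries lay from 16.85 to 62.07. Growing 4 thus lay among the other libraries labelled as treated with 4OHT, which ranged from 16.85 to 84.12, and RIS 2 among the other libraries labelled as untreated, which ranged from −84.31 to −36.5. Both libraries are named and grouped here as they are labelled, so comparisons over all 24 samples hold them on the side that their labels give, and why they lie with the opposite 4OHT state was not tested. Results for RIS against growing are given with all 24 samples and with the 22 that remain without them. All 9 fibroblast markers passed the filter on low counts, and their summed level lay between 5230 and 40250 CPM in growing, 14140 and 20100 CPM in shHMGA1, 5749 and 26780 CPM in RIS and 4591 and 5977 CPM in RIS+shHMGA1. It thus did not overlap between the hairpin groups compared below, being lower in RIS+shHMGA1. Most of the sum came from *COL1A1*, *VIM* and *COL1A2*, with means of 7527, 4422 and 3789 CPM in shHMGA1 and 586, 3516 and 364 CPM in RIS+shHMGA1. Of these markers *FAP* alone went the other way, at 55.6 to 94.7 CPM in shHMGA1 and 134 to 178 CPM in RIS+shHMGA1. Summed endothelial markers (*PECAM1*, *VWF*, *CDH5*, *CLDN5* and *TIE1*, of which 2 passed the filter) lay between 0.840 and 16.9 CPM in growing, 0.790 and 1.43 CPM in shHMGA1, 0.816 and 14.3 CPM in RIS and 5.72 and 16.5 CPM in RIS+shHMGA1, also without overlap between the hairpin groups. Summed levels lay between 1.46 and 5.47 CPM for 5 epithelial markers and between 42.2 and 109 CPM for 5 leukocyte markers, with *CD3E* at 0 in 3 of the 4 groups, and the part of any of these lists in the results was not tested.

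Levels between genes were compared as CPM per kilobase of transcript. *HSPA5*, which encodes the abundant ER chaperone BiP, had the highest level of the members in every group, with means from 184.9 to 220.6 CPM per kb. *ATF4* had group means of 86.3 to 126 CPM per kb, and *PPP1R15A*, the eIF2α phosphatase subunit GADD34, of 74.6 to 117 CPM per kb. In RIS the mean of *PPP1R15A* (99.5 ± 16.7 CPM per kb, SD) was above that of *ATF4* (86.3 ± 9.59), and in the other groups below it. *TRIB3*, *DDIT4* and *ASNS* were the members with the lowest levels, with group means from 6.92 to 17.8, from 9.06 to 32.2 and from 10.9 to 15.3 CPM per kb. The levels of one gene across the samples, on which the comparisons rest, are drawn in the plot of CPM by group.

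**Figure D1:**
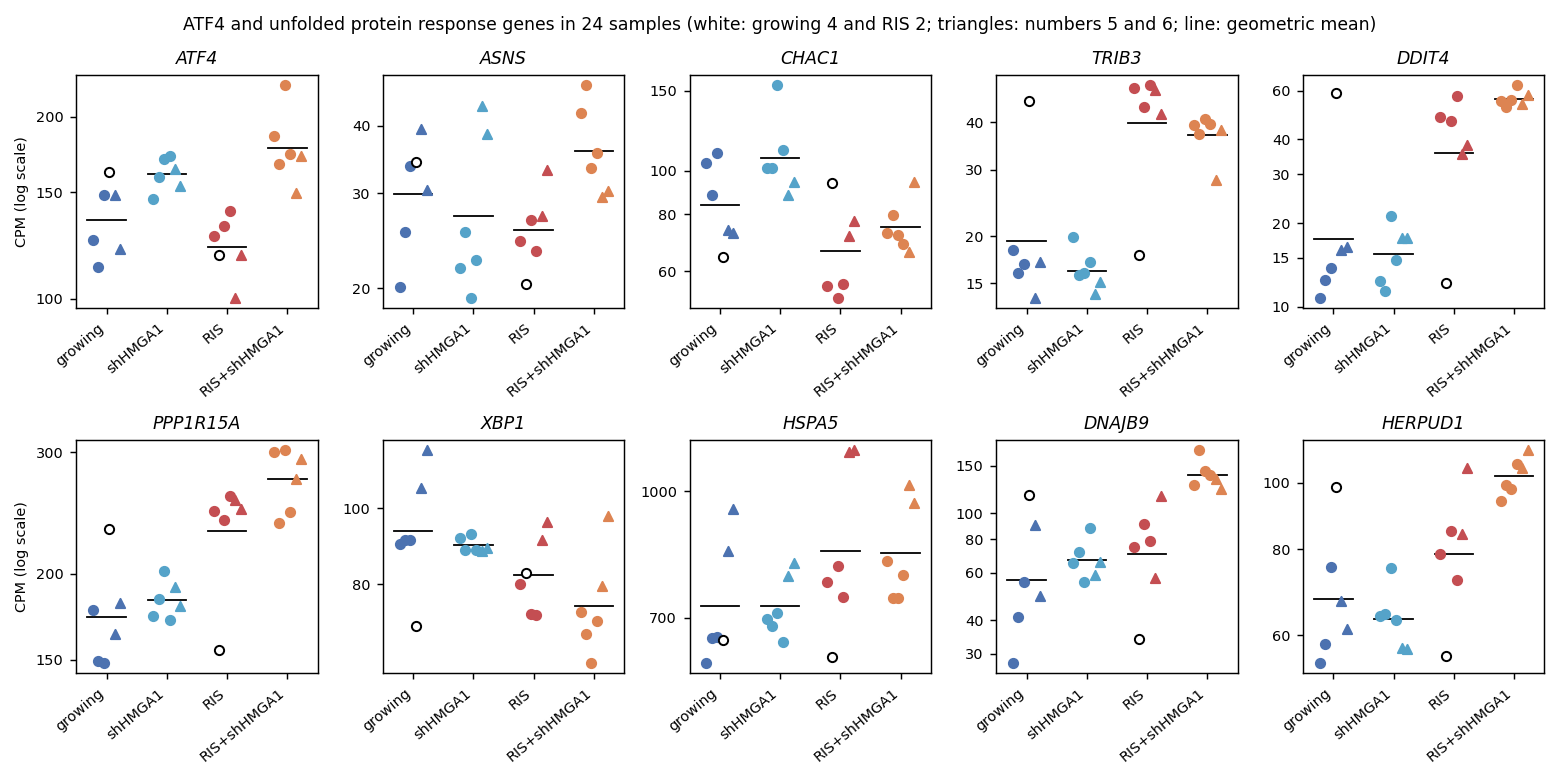
CPM (log axis, on TMM library sizes) of the 10 genes in each of the 24 samples by group; each point is a sample, white points are growing 4 and RIS 2, triangles are samples numbered 5 and 6, and the line is the geometric mean of the group. For *TRIB3*, *DDIT4* and *PPP1R15A* the white point of growing lies above and that of RIS below all others of its group, and for *HSPA5* the triangles lie above the circles in every group.

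To ask which of these genes changed on 4OHT in cells with the hairpin, RIS+shHMGA1 was compared with shHMGA1. *DDIT4*, *TRIB3*, *DNAJB9*, *HERPUD1* and *PPP1R15A* rose, 3.54-, 2.28-, 2.07-, 1.61- and 1.499-fold, and no member was called as lower. Genes were called at a Benjamini-Hochberg FDR under 0.01 in edgeR's quasi-likelihood test, adjusted over all 13356 genes tested, together with an absolute log2 fold change over 0.58. By this rule 39.1% of all genes were called, and 5 of 10 members were higher against 19.6% of all genes, and 0 were lower against 19.5%. *CHAC1* was lower and passed the FDR without the limit on the fold change. The median log2 fold change was 0.467 over the 10 members and −0.0235 over all genes tested. All 5 also had RIS+shHMGA1 values that lay above every shHMGA1 value, which held for 20.9% of all genes. Neither growing 4 nor RIS 2 belongs to these groups, and the same 5 genes were called when they were left out of the fit, where 44.4% of all genes were called, 22.5% as higher and 21.9% as lower.

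Among the members downstream of ATF4, *DDIT4*, an inhibitor of mTORC1 also known as REDD1, lay between 11.4 and 21.2 CPM with a median of 16.2 in shHMGA1 and between 52.2 and 62.7 CPM with a median of 55.3 in RIS+shHMGA1. The log2 fold change was 1.83 ± 0.35 (SE, n = 6 per group, edgeR adjusted p = 0.00039). *TRIB3*, a pseudokinase that binds AKT and ATF4, lay between 14.1 and 19.8 CPM with a median of 15.9 and between 28.1 and 40.9 CPM with a median of 38.8, a log2 fold change of 1.19 ± 0.25 (edgeR adjusted p = 0.00064). In RIS+shHMGA1 the samples of *TRIB3* other than number 5 lay within 37.3 and 40.9 CPM. *PPP1R15A*, which closes the loop by restoring translation, went from 171 to 202 CPM with a median of 181 in shHMGA1 to 236 to 302 CPM with a median of 283 in RIS+shHMGA1. Its log2 fold change of 0.58 ± 0.12 (0.5843, edgeR adjusted p = 0.00073) passed the limit of 0.58 by little, and it was no longer called without a filter on low counts, with the replicate number as a block (0.5774, 42.4% of all genes called) or in a fit of the 12 samples of this comparison.

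Among the members known to answer the ER branches, *DNAJB9*, a co-chaperone of BiP that holds back IRE1, lay between 55.7 and 88.1 CPM with a median of 65.4 in shHMGA1 and between 123 and 171 CPM with a median of 136.7 in RIS+shHMGA1. The log2 fold change was 1.05 ± 0.27 (SE, n = 6 per group, edgeR adjusted p = 0.0029). *HERPUD1*, a membrane protein of the degradation complex of the ER and the holder of both a CARE and an ERSE-II match above, lay between 57.3 and 75.2 CPM with a median of 63.6 and between 93.9 and 111 CPM with a median of 102. Its log2 fold change was 0.69 ± 0.14 (edgeR adjusted p = 0.00047), and the groups did not overlap. *HSPA5*, whose promoter holds the ERSE, gave a log2 fold change of 0.22 with a 95% interval from −0.07 to 0.51 (edgeR adjusted p = 0.19), and *XBP1*, which holds the other ERSE, gave −0.24 with an interval from −0.47 to −0.02 (edgeR adjusted p = 0.067). In both genes the groups overlapped.

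The remaining members of the ATF4 arm were not called. *ATF4* itself lay between 146 and 172 CPM in shHMGA1 and between 149 and 226 CPM in RIS+shHMGA1, a log2 fold change of 0.15 with a 95% interval from −0.06 to 0.37 (edgeR adjusted p = 0.21). *CHAC1*, which degrades glutathione, was lower in RIS+shHMGA1 in 6 of 6 same-numbered samples, with log2 differences from −1.1 to −0.001, at 66.0 to 94.3 CPM with a median of 72.4 against 88.3 to 154 CPM with a median of 101. Its log2 fold change of −0.52 ± 0.16 passed the FDR (edgeR adjusted p = 0.0092) and not the limit on the fold change. The main fit did not pair samples by number, so counts over same-numbered samples, here and below, are a description only. *ASNS*, asparagine synthetase, lay between 19.2 and 43.5 CPM with a median of 24.01 and between 29.5 and 47.5 CPM with a median of 34.5 (log2 fold change 0.35 ± 0.19, edgeR adjusted p = 0.12). The 3 members with CARE letters in their windows thus gave log2 fold changes of both signs, with *HERPUD1* and *ASNS* above and *CHAC1* below 0. Only *HERPUD1* of them was called, and a link of these letters to the direction was not tested.

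*ASNS* and *HSPA5* moved with the replicate number. In *ASNS*, the same-numbered log2 differences of RIS+shHMGA1 minus shHMGA1 were 0.94, 0.90, 0.79 and 0.65 for numbers 1 to 4 and −0.56 and −0.35 for numbers 5 and 6. In *HSPA5*, numbers 5 and 6 lay above numbers 1 to 4 in each of the 4 groups, from 788 to 1122 CPM for numbers 5 and 6, a pattern found in 0.562% of all genes. *HMGA1* was also lowest in numbers 5 and 6 of both hairpin groups, at 54.4 to 75.1 CPM against 98.7 to 262 CPM in numbers 1 to 4. What set these numbers apart was not tested. Without numbers 5 and 6, 0 of 13375 genes and 0 members were called in this comparison by edgeR, while 8380 genes and 8 members had an unadjusted p under 0.05. The fold changes of the 5 genes changed little, from 0.54 for *PPP1R15A* to 1.89 for *DDIT4*, and the adjusted p ranged from 0.016 to 0.033. When growing 4 and RIS 2 were left out of that fit as well, an alternative chosen after the data had been seen, 47.7% of 13472 genes, 23.9% as higher and 23.8% as lower, and 5 members were called in the 14 samples left. These were *DDIT4*, *TRIB3*, *DNAJB9* and *ASNS* (log2 fold change 0.81 ± 0.15, edgeR adjusted p = 5.9e-05), which rose, and *CHAC1* (−0.70 ± 0.12, edgeR adjusted p = 3.9e-05), which fell, while *HERPUD1* (0.55) and *PPP1R15A* (0.54) kept an FDR under 0.01 with a fold change under the limit.

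The same question in cells with control vector was put by RIS against growing, which shares no library with the comparison above. With all 24 samples 0 of 13356 genes (0.0%) and 0 members were called by edgeR, although 4407 genes and 3 members (*TRIB3*, *PPP1R15A* and *DDIT4*) had an unadjusted p under 0.05 and DESeq2 called 829 genes and 1 member, *TRIB3*. Without growing 4 and RIS 2, edgeR called 39.7% of 13416 genes, and *DDIT4*, *TRIB3*, *DNAJB9* and *PPP1R15A* were higher in RIS, 4 of 10 members against 19.2% of all genes, with 0 lower against 20.5%. Both fits are drawn beside the hairpin cells in the plot of the responses to 4OHT. *TRIB3*, *DDIT4* and *PPP1R15A* did not overlap between the 5 growing and the 5 RIS samples left, which held for 15.9% of all genes in this direction. With all samples each of the 10 members overlapped, where 0.157% of all genes did not overlap with RIS higher.

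*DDIT4* lay at 10.8, 12.5, 13.8, 16.0 and 16.4 CPM in the growing samples other than number 4 and at 48.0, 46.5, 57.1, 35.4 and 38.2 CPM in the RIS samples other than number 2. Growing 4 held 58.8 CPM, above every RIS sample, and RIS 2 held 12.2 CPM, within the range of the growing samples. The log2 fold change was 0.90 ± 0.35 with all samples (edgeR adjusted p = 0.074) and 1.70 ± 0.16 without these libraries (edgeR adjusted p = 1.8e-09). *TRIB3* lay at 18.4, 15.9, 16.9, 13.8 and 17.1 CPM in growing and at 49.2, 44.03, 50.2, 48.8 and 42.0 CPM in RIS, with 45.7 CPM in growing 4 and 17.8 CPM in RIS 2. Its log2 fold change was 0.99 ± 0.25 (edgeR adjusted p = 0.018) with all samples and 1.51 ± 0.11 (edgeR adjusted p = 4.6e-11) without them.

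*PPP1R15A* lay between 148 and 181 CPM in the 5 growing samples and between 239 and 259 CPM in the 5 RIS samples, with 232 CPM in growing 4 and 155 CPM in RIS 2. Its log2 fold change was 0.42 ± 0.12 (edgeR adjusted p = 0.032) with all samples and 0.61 ± 0.092 (edgeR adjusted p = 4.8e-06) without them. *DNAJB9* overlapped between the groups, at 27.7 to 90.4 CPM in growing and 57.3 to 116 CPM in RIS without both libraries, and gave 0.25 ± 0.27 (edgeR adjusted p = 0.53) with all and 0.67 ± 0.22 (edgeR adjusted p = 0.0099) without them. *HERPUD1* and *CHAC1* passed the FDR in the 22 samples without the limit on the fold change, at 0.42 ± 0.11 (edgeR adjusted p = 0.0015) and −0.52 ± 0.15 (edgeR adjusted p = 0.0052). *ATF4*, *ASNS*, *XBP1* and *HSPA5* gave log2 fold changes of −0.09, −0.14, −0.27 and 0.29 in the 22 samples, and none of them passed the FDR. In the 14 samples without numbers 5 and 6 and these libraries, 47.8% of all genes and 5 members were called, the same 4 as higher against 23.7% of all genes and *CHAC1* (−0.87 ± 0.14, edgeR adjusted p = 2e-05) as lower against 24.1%.

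**Figure D2:**
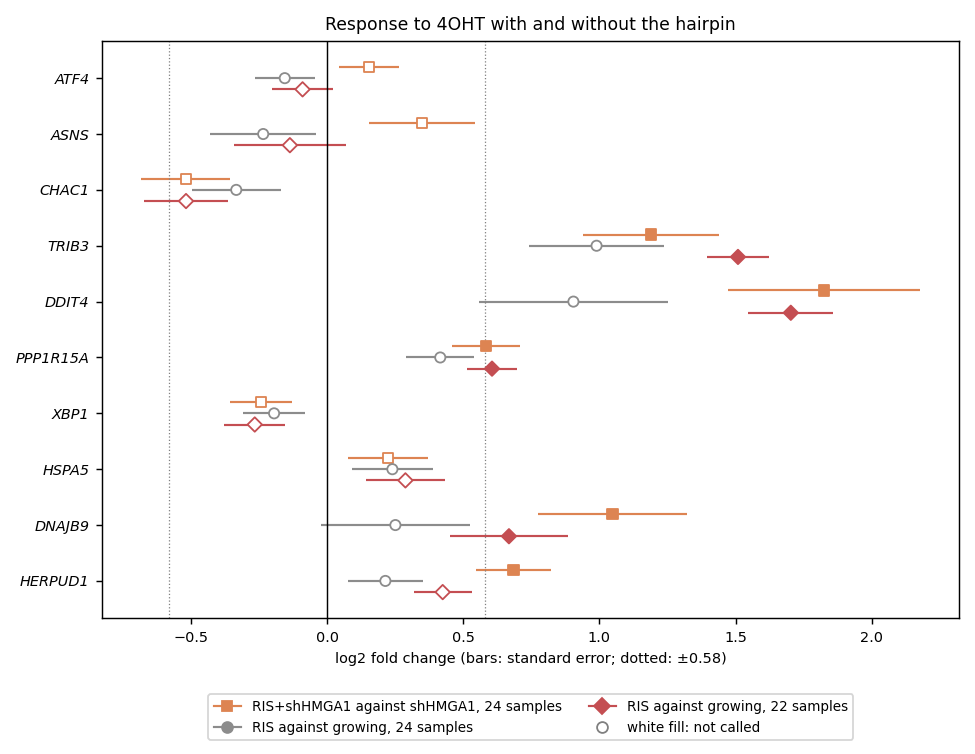
Log2 fold change (x axis) of the 10 genes on 4OHT in cells with the hairpin (24 samples) and with control vector (24 samples, and 22 without growing 4 and RIS 2), with bars for the standard error, dotted lines at the limit of 0.58, and filled symbols for genes called. *DDIT4*, *TRIB3*, *DNAJB9* and *PPP1R15A* are filled in the hairpin cells and in the 22 samples of vector cells, *HERPUD1* only in the former, and none in the 24 samples of vector cells.

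Whether 4OHT acted differently with and without the hairpin was tested by the interaction term. edgeR called 0 of 13356 genes (0.0%) and 0 members, with 1371 genes and 3 members at an unadjusted p under 0.05, and DESeq2 called 5 genes and 0 members. The interaction was 0.47 ± 0.19 for *HERPUD1*, 0.58 ± 0.28 for *ASNS*, 0.80 ± 0.39 for *DNAJB9* and 0.92 ± 0.49 for *DDIT4*, each with an adjusted p of 0.43 in edgeR. In the 22 samples the values were 0.26, 0.48, 0.38 and 0.12 with an adjusted p of 0.99. The response of *HERPUD1*, called in hairpin cells and not in vector cells, was therefore not shown to differ between them.

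The effect of the hairpin on these genes was followed by shHMGA1 against growing and by RIS+shHMGA1 against RIS, each of which shares a group with a comparison above. *ATF4* had the order RIS (122 ± 13.6 CPM, SD), growing (136 ± 19.5), shHMGA1 (161 ± 10.01) and RIS+shHMGA1 (179 ± 25.7), with n = 6 in each, and neighbours in this order were not called. Between RIS and RIS+shHMGA1 the values of *ATF4* did not overlap, at 100.4 to 139.7 CPM against 149.5 to 226 CPM, which held for 8.0% of all genes in this direction. The log2 fold change of 0.55 ± 0.11 passed the FDR (edgeR adjusted p = 0.0048) and lay just under the limit of 0.58, so that *ATF4* was not called. Without growing 4 and RIS 2 it was 0.54 ± 0.11 (edgeR adjusted p = 0.0015). Without 4OHT the groups overlapped and the log2 fold change of *ATF4* was 0.24 ± 0.11 (edgeR adjusted p = 0.35), with shHMGA1 higher in 6 of 6 same-numbered samples. Its interaction was 0.31 ± 0.15 (edgeR adjusted p = 0.43).

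In RIS+shHMGA1 against RIS, 341 genes (2.55%) were called in the 24 samples, 1.77% higher and 0.786% lower, and 0 members by edgeR. An unadjusted p under 0.05 was found for 4 of the 10 members, and for 6647 of all 13356 genes. DESeq2 called 11.8% of all genes and 1 member, *DNAJB9*. *DNAJB9* lay between 34.1 and 116 CPM in RIS and between 123 and 171 CPM in RIS+shHMGA1 without overlap. Its log2 fold change was 0.89 ± 0.27 (edgeR adjusted p = 0.022) with all samples and 0.74 ± 0.21 (edgeR adjusted p = 0.0086) in the 22 samples, where 12.5% of all genes were called. It was the 1 member called as higher against 10% of all genes, and 0 were lower against 2.5%. *TRIB3* went the other way in those samples, with RIS values from 42.0 to 50.2 CPM all above the RIS+shHMGA1 values (6.24% of all genes in this direction), and a log2 fold change of −0.33 ± 0.10 (edgeR adjusted p = 0.016) that was not called. In the 14 samples *DNAJB9* (0.81 ± 0.18, edgeR adjusted p = 0.0034) and *ASNS* (0.65 ± 0.16, edgeR adjusted p = 0.0055) were called as higher, 2 of 10 members against 9.23% of all genes, with 0 lower against 1.2% and 10.4% called in all. *ASNS* gave 0.49 ± 0.20 (edgeR adjusted p = 0.053) and *HERPUD1* 0.35 ± 0.14 (edgeR adjusted p = 0.049) with all samples. *DDIT4*, *HSPA5*, *XBP1*, *CHAC1* and *PPP1R15A* had 95% intervals that included 0, among them −0.03 (−0.32 to 0.26) for *HSPA5*.

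In shHMGA1 against growing, edgeR called 36 genes (0.27%) and 0 members, and DESeq2 called 99 genes and 0 members. In edgeR 1759 of 13356 genes had an unadjusted p under 0.05, among them *ATF4* and *CHAC1*. In the 22 samples edgeR called 2.59% of all genes, 1.21% as higher and 1.39% as lower, and again 0 members. *ATF4* gave 0.29 ± 0.11 (edgeR adjusted p = 0.055) and, like 5221 of 13416 genes, had an unadjusted p under 0.05. *CHAC1* gave 0.34 ± 0.16 (edgeR adjusted p = 0.37) and was higher in shHMGA1 in 5 of 6 same-numbered samples. *DDIT4* and *TRIB3* gave −0.41 ± 0.35 and −0.37 ± 0.25, values that rested on growing 4 and became 0.20 ± 0.15 and −0.01 ± 0.11 without it and RIS 2. In the 14 samples, *DNAJB9* was called as higher in shHMGA1 (0.78 ± 0.18, edgeR adjusted p = 0.0069) against 4.85% of all genes, with 0 lower against 2.3% and 7.16% called in all.

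**Figure D3:**
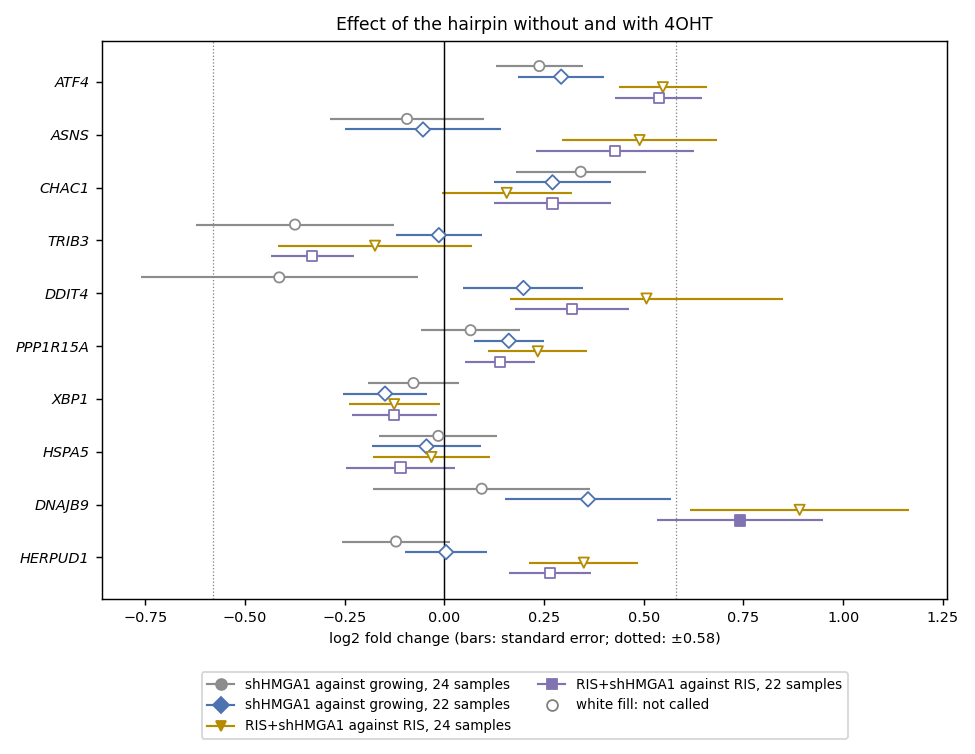
Log2 fold change (x axis) of the 10 genes with the hairpin, in cells without 4OHT (shHMGA1 against growing) and with it (RIS+shHMGA1 against RIS), in 24 samples and in 22 without growing 4 and RIS 2, with bars for the standard error and dotted lines at the limit of 0.58. *ATF4* lies to the right of 0 in all 4 estimates, and *DNAJB9* in RIS+shHMGA1 against RIS in the 22 samples is the 1 filled symbol, for a gene called.

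The rest of the pathway was described by 90 further genes in 8 lists, of which 88 passed the filter on low counts. In RIS+shHMGA1 against shHMGA1, 16 of the 88 rose and 12 fell, against 19.6% and 19.5% of all genes, and their median log2 fold change was −0.0381. The shares of all genes, 19.6% higher and 19.5% lower, are also those against which the count of each list below is to be read, and in the 22 samples of RIS against growing they were 19.2% and 20.5%. With all 24 samples edgeR called 0 of the 88 genes in RIS against growing, with 27 at an unadjusted p under 0.05, beside 4407 of all 13356 genes. DESeq2 called 7 of the 88 and 6.21% of all genes. The lists did not move as a block, as the plot of the 8 lists shows. In RIS+shHMGA1 against shHMGA1 without numbers 5 and 6, edgeR called 0 of the 88 genes. DESeq2 on all samples called 16 as higher and 12 as lower, and 41.4% of all genes. In the 14 samples 17 rose and 19 fell, against 23.9% and 23.8% of all genes.

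Among 9 transcription factors and secreted factors linked to ATF4, 3 rose, namely *GDF15* (3.05 ± 0.61, edgeR adjusted p = 0.00048), a stress cytokine, *DDIT3* (1.90 ± 0.35, edgeR adjusted p = 0.00028), which encodes the factor CHOP, and *CEBPB* (1.099). *GDF15* lay between 45.5 and 91.3 CPM in shHMGA1 and between 301 and 877 CPM in RIS+shHMGA1, and *DDIT3* between 18.5 and 25.4 CPM and between 65.6 and 106 CPM, both without overlap. In vector cells they gave 1.86 ± 0.59 (edgeR adjusted p = 0.037) and 0.70 ± 0.34 (edgeR adjusted p = 0.15) with all samples and were not called, and without growing 4 and RIS 2 they gave 3.39 ± 0.30 and 1.54 ± 0.14 and were called. *NUPR1* (−1.55) and *STC2* (−1.37), a nuclear stress protein and a secreted glycoprotein, fell. *CEBPB*, *NUPR1* and *STC2* were named after their values were seen. *ATF3*, a stress-induced repressor, gave 0.59 ± 0.27 (edgeR adjusted p = 0.060) and in vector cells 0.70 ± 0.27 (edgeR adjusted p = 0.078), and was called in the 22 samples at 0.59 ± 0.13 in hairpin cells and 1.28 ± 0.15 in vector cells. *ATF5* (0.19) and *SESN2* (0.26) were not called in either.

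Of the amino acid genes, the metabolic targets of ATF4, the lists of transporters and of synthesis held more genes that fell than rose in hairpin cells. The list of aminoacyl-tRNA synthetases held more that rose. Of 8 amino acid transporters 0 rose and 4 fell by edgeR and by DESeq2, with a median log2 fold change of −0.89 in edgeR. In edgeR 7 of the 8 had an unadjusted p under 0.05, as had 9004 of all 13356 genes. *SLC1A4*, which carries alanine, serine and cysteine, fell by 2.44 ± 0.50 on the log2 scale (edgeR adjusted p = 0.00052), from values of 13.9 to 20.002 CPM in shHMGA1 to 2.28 to 5.12 CPM in RIS+shHMGA1, and *SLC6A9*, a glycine transporter, by 1.75 ± 0.46. In vector cells edgeR and DESeq2 called 0 of the 8 with all samples, with *SLC1A4* at −1.39 ± 0.46 and *SLC6A9* at −1.32 ± 0.42. An unadjusted p under 0.05 in edgeR was found for 6 of the 8 and for 4407 of all 13356 genes. Without growing 4 and RIS 2, 6 of the 8 fell against 20.5% of all genes and 0 rose against 19.2%, with *SLC1A4* at −2.39 ± 0.26 and *SLC6A9* at −2.03 ± 0.32. Of 11 genes of amino acid and one-carbon synthesis 1 rose, *CTH* of cysteine synthesis (1.44 ± 0.34), and 3 fell, among them *PHGDH* of serine synthesis (−1.28 ± 0.30). Of 12 aminoacyl-tRNA synthetases 3 rose, among them *YARS1* (0.70 ± 0.12) and *IARS1* (0.63 ± 0.16), and 1 fell.

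Of 10 sensors and signalling genes, 2 rose and 1 fell. *EIF2AK3*, which encodes PERK, fell by 0.68 ± 0.18 on the log2 scale (edgeR adjusted p = 0.0030), from 20.4 to 26.7 CPM in shHMGA1 to 11.9 to 19.5 CPM in RIS+shHMGA1, and gave in vector cells −0.15 ± 0.18 (edgeR adjusted p = 0.55) with all samples and −0.34 ± 0.15 (edgeR adjusted p = 0.060) without growing 4 and RIS 2. *EIF2AK2*, the kinase PKR that binds double-stranded RNA, rose by 0.84 ± 0.19. *ATF6* (−0.48) and *EIF2AK4* (−0.45), which encodes the amino acid sensor GCN2, passed the FDR without the limit on the fold change, and *ERN1*, which encodes IRE1, gave 0.38 ± 0.23 (edgeR adjusted p = 0.14).

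Of 16 other ER chaperones and folding enzymes, 0 rose and 0 fell in hairpin cells by edgeR or DESeq2, with a median log2 fold change of −0.051, beside the value of 0.22 for *HSPA5*. Of the 16, 7 had an unadjusted p under 0.05 in edgeR, as had 9004 of all 13356 genes. In vector cells the counts of called genes were also 0 and 0. There 1 of the 16 had an unadjusted p under 0.05 in all samples, beside 4407 of 13356 genes. Without growing 4 and RIS 2 there were 2, beside 8761 of 13416 genes. In the 14 samples 0 of the 16 rose and 4 fell in hairpin cells, against 23.9% and 23.8% of all genes. In vector cells of that fit 1 rose and 0 fell, against 23.7% and 24.1% of all genes. Of 12 genes of ER-associated degradation 2 rose, *DERL2* (0.72 ± 0.18) and *EDEM1* (0.65), and 1 fell, the lectin gene *OS9* (−1.18 ± 0.24), and *EDEM1* was named after its value was seen. Of 10 genes of translocation into the ER and export from it 5 rose and 0 fell, against 19.6% and 19.5% of all genes, with a median of 0.434. Among them were *SEC61G* (1.23 ± 0.31), a subunit of the translocation channel, and *SRPRB* (1.01 ± 0.24), a subunit of the signal recognition particle receptor, with adjusted p of 0.0024 and 0.0016 in edgeR. In vector cells these 2 genes gave 0.25 ± 0.31 and 0.23 ± 0.24 with all samples and were not called, and 0.88 ± 0.20 and 0.67 ± 0.16 without growing 4 and RIS 2, where they were called.

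**Figure D4:**
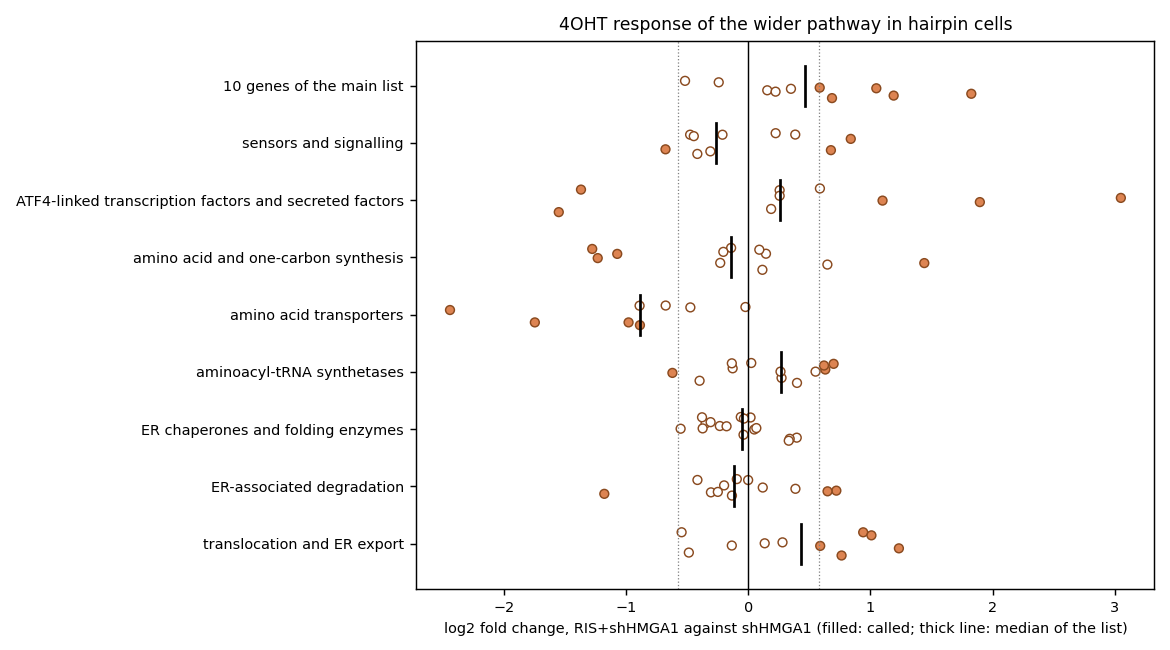
Log2 fold change (x axis) of each tested gene in RIS+shHMGA1 against shHMGA1 for the 10 genes and the 8 wider lists (rows), with filled points for genes called, a thick line for the median of the list and dotted lines at the limit of 0.58. No point of the ER chaperones is filled, and the amino acid transporters have filled points on the left of 0 alone.

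By the pattern over the 24 samples, the tested genes outside the 10 most like *ATF4* were *RANGRF*, *SLC25A35* and *MCRIP1*, with root mean square differences of the centred log2 CPM of 0.0971, 0.1 and 0.104. *RANGRF* and *SLC25A35* overlap on opposite strands in the annotation, and since the strand setting of the counts is not given in the sources used here, their reads cannot be told apart. The genes most like *HSPA5* were *NAB1*, *PDE12* and *UTP14A*, at 0.118, 0.132 and 0.134. Of the members, *ATF4*, *ASNS*, *XBP1* and *HSPA5* have annotated pseudogenes by name, and *ASNS* and *HERPUD1* overlap long noncoding RNAs on the same strand, so reads shared with these copies may have been assigned or dropped.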

How the data were processed

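The authors trimmed reads with cutadapt 1.10.0, mapped them to hg19 with STAR 2.5.0b, removed reads with a mapping quality under 20 and used Rsubread to obtain counts. The deposited values are raw counts per Entrez gene, without normalisation, and the version, annotation and strand setting of the counting are not given in the sources used here. Groups and replicate numbers were taken from the labels. Symbols were matched by Entrez identifier (23696 of 25702).

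The test was that of edgeR 4.0.16 (R 4.3.3 and limma 3.58.1), with filterByExpr by group, TMM, a quasi-likelihood fit of group means over all 24 samples, and Benjamini-Hochberg adjustment over the 13356 genes tested. The FDR of 0.01 and the absolute log2 fold change of 0.58 follow the study's methods. SE was computed as the absolute log2 fold change divided by the root of F. CPM used TMM library sizes. A prior count of 2 was added for log2 CPM. The members, lists and tests were chosen with earlier results of these data known. The text names the 10 members, 9 fixed genes of the wider lists, the 2 called genes per list with the largest change in RIS+shHMGA1 against shHMGA1 at a logCPM of at least 2, and the 3 genes most like *ATF4* and *HSPA5*. The script was tested on simulated data.

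Alternatives were DESeq2 1.42.0, RLE, other filters, the replicate number as a block, the samples of the contrast only, an FDR of 0.05, and fits without growing 4, RIS 2, both, or numbers 5 and 6. The fit without all of these libraries was added after the data had been seen. The 36 same-numbered pairs across groups had a mean correlation of deviations of 0.175, with 24 over 0.1 and a range from −0.594 to 0.828. Pairs with different numbers had a mean of −0.0496. Deviations were taken from group means that included growing 4 and RIS 2. With correlations this mixed, the numbers were not taken to pair the samples in the main fit, and the block is given as an alternative. No pair of the 60 within groups agreed within sampling noise. The labels call the replicates biological, and whether they came from separate cultures is not stated, so p-values measure the spread between these samples. Hairpin and 4OHT effects that share a group are not independent.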

Additional observations from a re-analysis of the deposited data

Results flagged for a closer look

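In each group of 6 samples and for each of the 10 genes, samples were ordered by log2 CPM. The gap in log2 CPM between the highest or the lowest sample and its nearest neighbour was divided by the range of the group. This ratio was compared with Dixon's 95% critical value for 6 samples. The CPM in brackets below show the level, and the ratios were not computed from them. Of 40 such tests 6 passed, where chance gives about 1 in 20, or 2. Of the 6, 2 were in growing 4 and 3 in RIS 2. In growing 4 the ratio was 0.76 for *TRIB3* (45.7 CPM, the next sample at 18.4 CPM) and 0.756 for *DDIT4* (58.8 CPM, the next at 16.4 CPM). In RIS 2 it was 0.828 for *TRIB3* (17.8 CPM, the next at 42.0 CPM), 0.689 for *DDIT4* (12.2 CPM, the next at 35.4 CPM) and 0.843 for *PPP1R15A* (155 CPM, the next at 239 CPM). In RIS+shHMGA1 5 it was 0.752 for *TRIB3* (28.1 CPM, the next at 37.3 CPM). Why these libraries lie apart was not tested.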

How the results depend on the processing

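Direction and side of the threshold were the same in 946 of 1070 repeats over single genes, with 74 newly called, 24 no longer called and 26 of the opposite sign. Members called in RIS against growing were 0 with all samples, 1 by DESeq2 or at an FDR of 0.05, 2 without growing 4, 2 without RIS 2, 4 without both and 5 without these and numbers 5 and 6. Of all genes, 0%, 6.21%, 11.5%, 25.4%, 19.2%, 39.7% and 47.8% were called under these settings in turn. In RIS+shHMGA1 against shHMGA1 the 5 members became 0 without numbers 5 and 6, where 0% of all genes were called. In RIS+shHMGA1 against RIS the 0 became 1 by DESeq2, at an FDR of 0.05, without growing 4 and without both libraries, and 2 in the 14 samples. The shares of all genes called were 11.8%, 21.7%, 19%, 12.5% and 10.4% in this order. In shHMGA1 against growing 0 became 1 in the 14 samples, where 7.16% of all genes were called. Of the 88 further genes, 0 called in RIS against growing became 7 by DESeq2, 20 without growing 4, 14 without RIS 2, 27 without both and 34 in the 14 samples, settings under which 6.21%, 25.4%, 19.2%, 39.7% and 47.8% of all genes were called, and the 28 in hairpin cells became 0 without numbers 5 and 6. In RIS+shHMGA1 against RIS 0 became 8 by DESeq2, 12 without growing 4, 7 without both and 4 in the 14 samples, where 11.8%, 19%, 12.5% and 10.4% of all genes were called. In shHMGA1 against growing 0 became 1, 3 and 4 under the last 3 of these settings, where 0.498%, 2.59% and 7.16% of all genes were called. The cause of these changes was not tested.

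With the replicate number as a block, 4 of the 5 members in hairpin cells were called (*PPP1R15A* at 0.58 was not), RIS against growing stayed at 0 members, and the 88 further genes went from 0 to 9 called in RIS+shHMGA1 against RIS, where all genes called went from 341 to 1637. The block turned the sign of *HSPA5* in shHMGA1 against growing (0.00048) and changed no other member's call. Same-numbered samples deviated together in part of the pairs only (correlation over 0.1 in 24 of 36). *PPP1R15A* lost its call in hairpin cells because its estimate moved from just above to just below the limit on the fold change.

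Among the members in every comparison, and the other genes named by rule in the response to 4OHT, the log2 fold changes that turned sign, none of them called, are given as the range over the fits without growing 4, RIS 2, both, or both with numbers 5 and 6. In RIS against growing it was −0.15 to 0.050 for *ATF4* and −0.11 to 0.15 for *SESN2*. In shHMGA1 against growing it was −0.37 to 0.015 for *TRIB3*, −0.41 to 0.29 for *DDIT4* (0.20 without growing 4 and 0.20 without both), −0.15 to 0.0021 for *XBP1*, −0.045 to 0.095 for *HSPA5* and −0.12 to 0.099 for *HERPUD1* (0.0050 and 0.0044). The interaction ranged from −0.32 to 0.041 for *TRIB3* (−0.16 without growing 4), −0.12 to 0.17 for *CHAC1*, −0.16 to 0.73 for *DDIT4*, −0.15 to 0.023 for *XBP1*, −0.12 to 0.012 for *HSPA5* and −0.11 to 0.075 for *PPP1R15A* (−0.021 without both). Without numbers 5 and 6 alone, *SESN2* gave −0.021 in RIS against growing, *HSPA5* 0.046 in RIS+shHMGA1 against RIS, and *XBP1* 0.087 and *HSPA5* 0.093 in shHMGA1 against growing.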
